A study of Mus musculus with 9 samples.

Results

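Cytosolic ribosomal protein genes encode the protein components of the large (Rpl) and small (Rps) subunits of the ribosome that translates nuclear-encoded mRNA. They were examined in regulatory T (Treg) cells, CD4 T cells that restrain immune responses under the transcription factor Foxp3. A gene was taken as a member if a probe set of the array carried it as its only symbol and the symbol was Rpl or Rps with a number and an optional paralogue suffix. This gave 63 genes of 22180 measured, 39 of the large and 24 of the small subunit, read by 101 probe sets. Each gene was represented by its brightest probe set (by the mean of 9 arrays), and the others are described beside it.

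The study compared 4 samples of Mst1/Mst2-KO Treg cells with 5 samples of WT Treg cells, 1 whole-transcript Affymetrix array each. KO cells came from C57BL/6 donors with YFP and Cre at the Foxp3 locus and loxP-flanked Stk4 and Stk3, the genes of the Hippo kinases Mst1 and Mst2. WT cells came from C57BL/6 donors with the same Foxp3 YFP-Cre allele and without the loxP-flanked genes. In both groups donor marrow was mixed with equal CD45.1 WT marrow and given to RAG1-/- recipients, and CD4+YFP+ cells that were CD45.2+ and CD45.1- were sorted. Deletion is thus limited to cells that have expressed Foxp3. Neither the age of the animals nor the number of chimeras behind the samples is in the sources used here. The p-values therefore measure only the spread between these samples, which may be technical. All WT samples carry lower serial numbers in their titles than all KO samples, and serial order and genotype cannot be told apart. Values are log2 RMA values (a microarray summary with background correction and quantile normalisation), and each difference is KO minus WT.

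Ribosomal proteins are made in matched amounts, and one copy of most of them is built into each ribosome. Their mRNAs are among the most abundant of a lymphocyte and begin with a terminal oligopyrimidine (TOP) stretch, through which mTORC1 controls their translation together. Mammalian genomes also carry many processed copies of these genes, intronless insertions of their mRNA, and probes can read both.

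The sequence around the annotated starts of these genes is shown first, since the selection rule did not use it. RefSeq promoters (build GRCm38.p6) were matched to 49 of the 63 members. A run of a C followed by at least 7 letters that were each C or T, on the gene's strand and within 50 bases on either side of the annotated start, was found in 40 of the 49 (81.6%), against 28.7% of all 27025 genes with a promoter and 29.0% of protein-coding genes. Annotated starts can lie some bases from the true start, so a run is a description and not a mapped TOP element. The window of Rps13 held no such run, which says only that these letters are not in it. Stretches of 30 bases around the longest run of the window, which is in capitals, are given 5′ to 3′ for 6 members described below, to show the letters these genes share.
Rps6 (chr4:86857349-86857378, minus strand): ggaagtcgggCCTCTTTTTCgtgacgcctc
Rpl11 (chr4:136053357-136053386, minus strand): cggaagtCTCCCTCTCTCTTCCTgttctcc
Rpl5 (chr5:107900497-107900526, plus strand): gcctacagccaCTCTTTCTCacgtcgcttg
Rps25 (chr9:44407684-44407713, plus strand): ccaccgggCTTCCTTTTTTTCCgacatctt
Rpl22 (chr4:152325679-152325708, plus strand): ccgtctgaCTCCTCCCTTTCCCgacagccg
Rpl22l1 (chr3:28805500-28805529, plus strand): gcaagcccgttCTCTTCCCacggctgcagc
The run was 16 letters long in Rpl11, 14 in Rps25 and Rpl22, 10 in Rps6, 9 in Rpl5 and 8 in Rpl22l1, the paralogue of Rpl22. Counted from the annotated start, it began at -39 in Rpl22, -22 in Rps25, -20 in Rpl5 and -1 in Rps6. It began at 4 in Rpl22l1 and at 15 in Rpl11. A run upstream of the start may lie outside the mRNA.

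Read from 1 probe set per gene, most ribosomal protein genes differed little between KO and WT Treg cells, and the exceptions, in probe sets of Rps13 and Rpl29, depend on which probe set of the gene is read. In the fit over all genes (limma with Benjamini-Hochberg adjustment, threshold 0.05) 1 of 63 members passed, Rps13, which fell, and 0 rose. Over all 22180 genes 2.32% passed, 1.89% lower and 0.428% higher in KO, so the members' count is near the background. At an unadjusted limma p under 0.05 there were 8 members, against 14.9% of all genes. Groups did not overlap for 6 members, 3 higher and 3 lower in KO, against 6.16% of all genes. The median difference of members was 0.0015, beside 0.0023 for all genes. Differences of 38 members (60.3%) were smaller than 0.1 in size, beside 55.0% of all genes. Most of these genes are strongly expressed, so the same count was made above the median of all probe sets (4.04), where it was 36 of 55 members (65.5%) and 43.2% of all genes. This cut does not match expression level, since the median level above it was 10.42 for members and 6.09 for all genes. The part of brightness in these shares was not tested. RMA scales arrays to each other (the array medians of the deposited values lay between 3.99 and 4.08), and a change in total mRNA per cell would not be seen in these values. In sorted bulk samples, fewer cells of a type and less RNA per cell cannot be told apart.

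**Figure D1:**
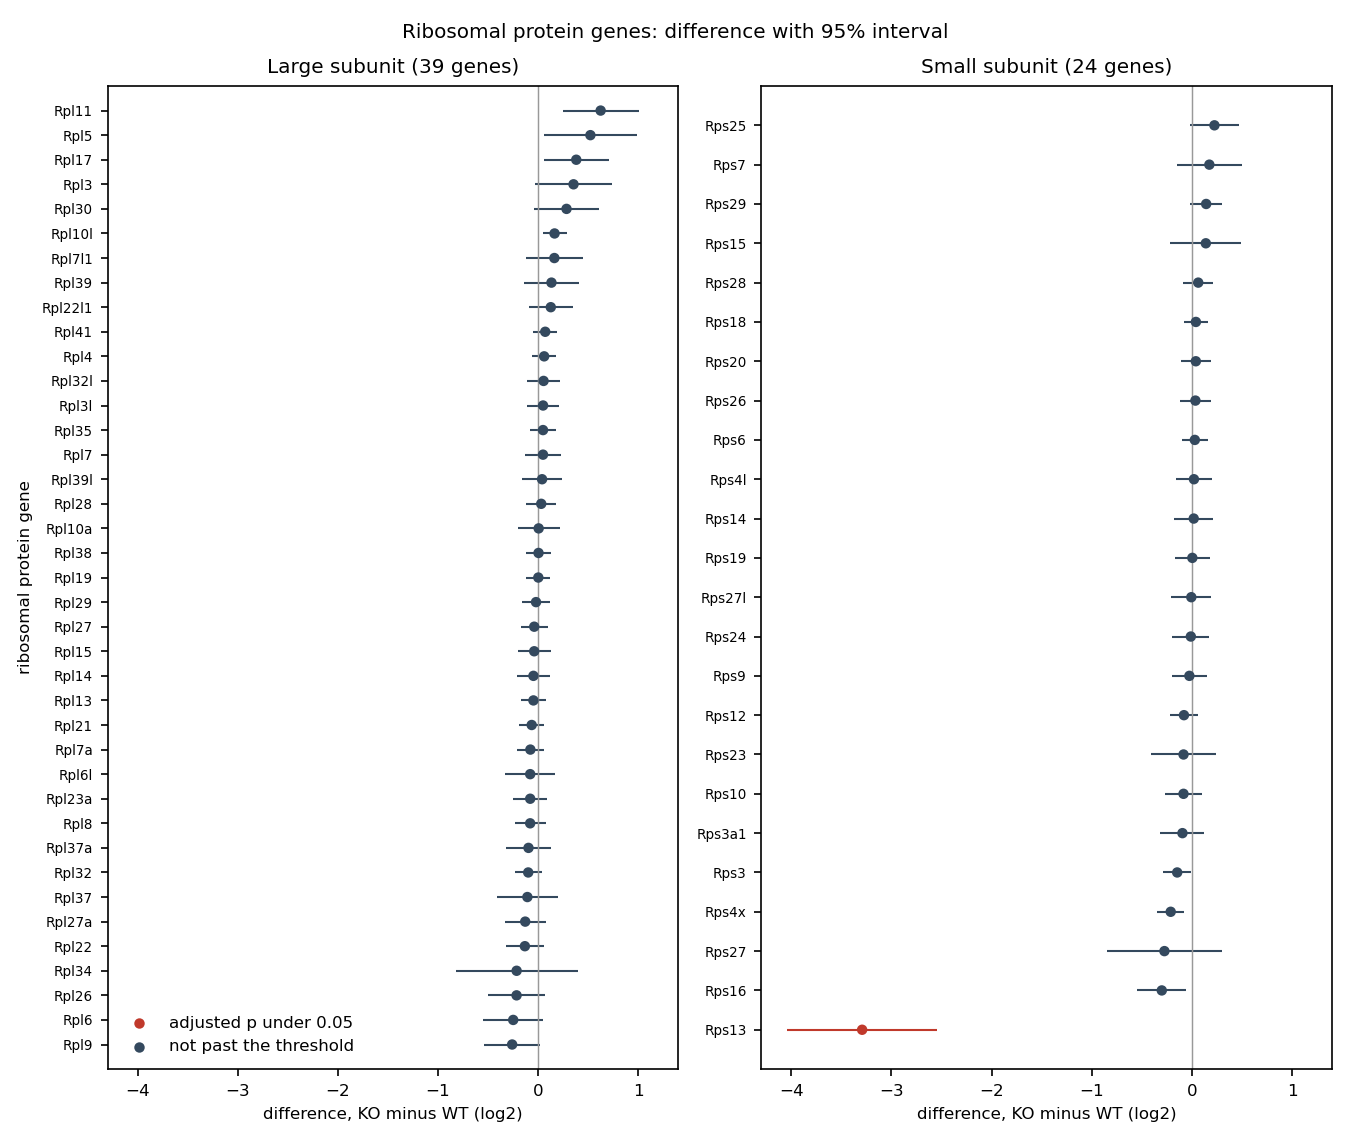
Difference between KO and WT Treg cells (KO minus WT, log2) with its 95% limma interval for each ribosomal protein gene, large subunit on the left and small subunit on the right. Rps13, at -3.29, is the 1 member past the threshold (red), and the other members lie between -0.30 and 0.62.

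Rps13 encodes a small-subunit protein. Its probe set read 6.23, 7.81, 5.78 and 6.94 in the KO arrays, against 10.004, 10.05, 9.65, 9.99 and 10.25 in the WT arrays. Each KO value lay below each WT value, and the KO arrays were spread over a wider range. Rps13 averaged 6.69 ± 0.89 (SD, n = 4) in KO and 9.99 ± 0.22 (SD, n = 5) in WT, a difference of -3.29 ± 0.34 (SE), or 9.80-fold lower in KO (limma adjusted p = 0.0011, exact two-sided permutation p = 0.0079, the smallest these groups allow). Without any 1 array the difference stayed between -3.67 and -2.99.

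The other 3 probe sets that list Rps13 did not differ in this way. A probe set that lists Rps13 with Gm15483 and Rps13-ps4 read 6.13, 6.04, 6.19 and 6.45 in KO arrays, against 6.27, 6.19, 6.64, 5.88 and 5.81 in WT arrays (difference 0.045, 95% interval from -0.34 to 0.43, limma adjusted p over all probe sets 0.943). A probe set listing Snord14a, a small nucleolar RNA in an Rps13 intron, together with Rps13 differed by 0.18 (95% interval from -0.34 to 0.71). The third, which lists Gm15483 first, read 10.80, 10.70, 10.75 and 10.55 in KO arrays, against 10.55, 10.25, 10.12, 10.54 and 10.68 in WT arrays (difference 0.27, limma adjusted p = 0.402). KO and WT values overlapped in all 3, and none of the 3 intervals reached a decrease of the size seen in the first probe set.

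These probe sets also lie in different places of the array's ID order. Probe set IDs follow gene order: of 20059 probe sets with 1 symbol and a place among protein-coding genes in the reference table (GRCm38.p6), 98.6% lay within 20 genes of one of their 2 nearest ID neighbours on either side. The probe set that lists Rps13 alone stands between those of Tyr, the melanin enzyme tyrosinase, and Tmem135. The reference places no Rps13 gene there, and between these 2 genes it lists a pseudogene, Rps13-ps2, 1 of 5 Rps13 pseudogenes with such a name. The reference places Rps13 itself between Plekha7 and Pik3c2a, where the probe set listing Rps13 before Gm15483 and that with Snord14a stand. The brighter probe set that lists Gm15483 first was not placed. Which transcript the Rps13-only probe set reads was not tested, and the 9.80-fold difference is that of this probe set.

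**Figure D2:**
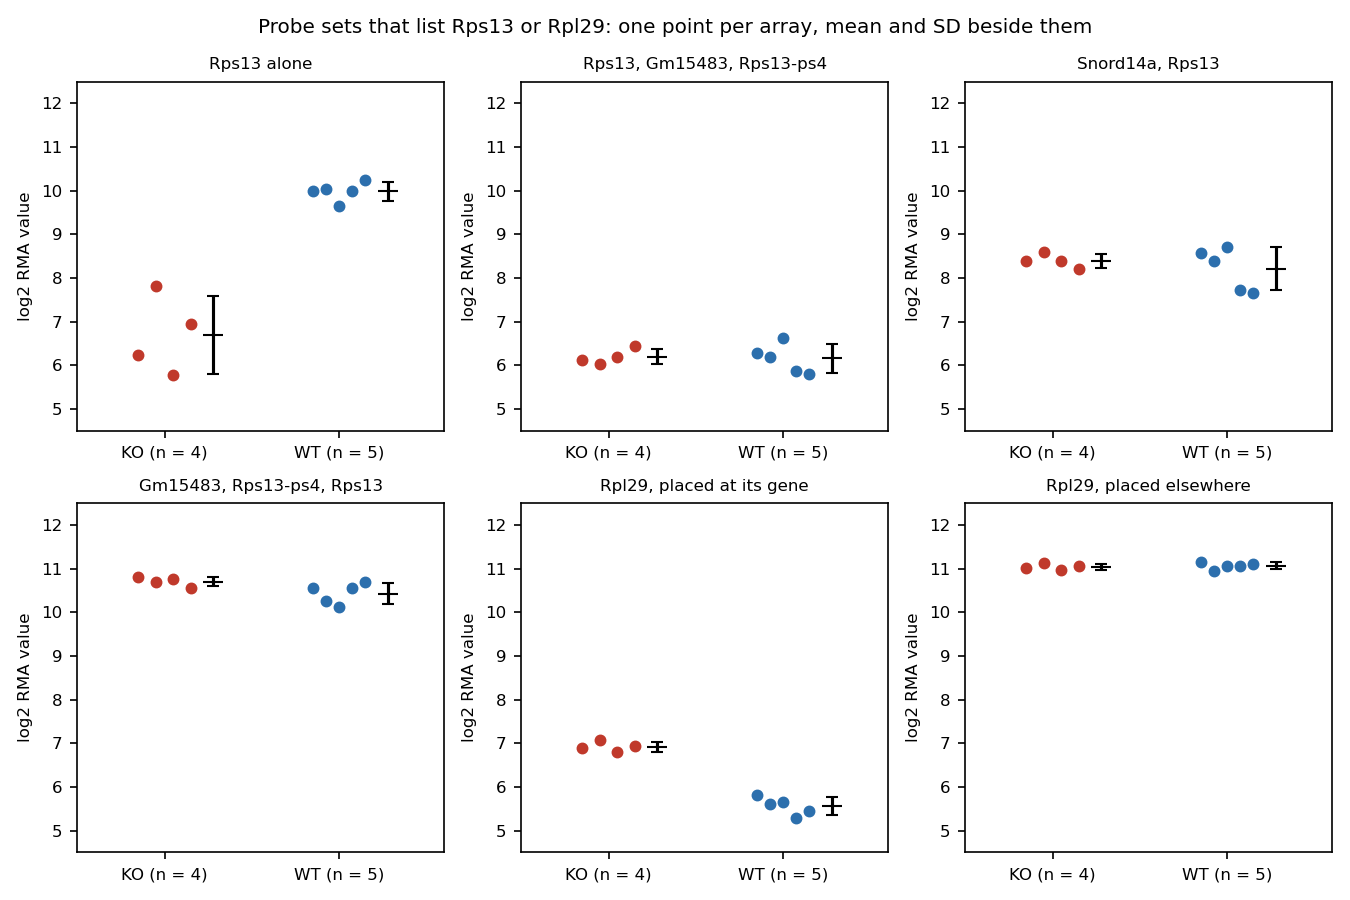
Log2 RMA values of the 4 probe sets that list Rps13 and the 2 that list Rpl29, 1 point per array (KO in red on the left, WT in blue on the right) with the group mean and SD. The Rps13-only probe set and the Rpl29 probe set placed at its gene have groups that do not overlap, and the other 4 have groups that overlap.

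Genes around both places were read as well. Of the 20 genes nearest to the Rps13-only probe set in ID order (10 on either side, a set chosen after the placement was seen) 0 passed limma's test and 1, Tmem135, had an unadjusted p under 0.05 (difference -0.28, limma adjusted p = 0.225). Of the 20 measured genes nearest to Rps13 in the reference order, 1 rose and 1 fell, where 2.32% of all genes passed. In the same 20 genes 5 had an unadjusted limma p under 0.05, against 14.9% of all genes. Pde3b, a cyclic nucleotide phosphodiesterase, rose (difference 1.69, limma adjusted p = 0.00064). Xylt1, a xylosyltransferase of proteoglycan synthesis, fell (difference -0.67, limma adjusted p = 0.0025). The immediate neighbours Plekha7 (0.080) and Pik3c2a (-0.21) did not pass.

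Rpl29, a large-subunit protein gene, had probe sets that did not differ alike. The brightest probe set, placed elsewhere in ID order, read 11.01, 11.12, 10.96 and 11.06 in KO arrays, against 11.15, 10.94, 11.05, 11.05 and 11.10 in WT arrays (difference -0.021, limma adjusted p = 0.918). The second probe set stands between Dusp7 and Abhd14b, where the reference places the Rpl29 gene. It read 6.90, 7.07, 6.80 and 6.93 in KO arrays, against 5.82, 5.61, 5.66, 5.28 and 5.45 in WT arrays. All KO values of this probe set were above all WT values, and it rose by 1.36 ± 0.11 (SE), or 2.56-fold (limma adjusted p over all probe sets 0.0010, exact permutation p = 0.0079). Over all 41345 probe sets 1.28% passed. Of the 20 genes nearest to this second probe set in ID order 0 passed limma's test, and 5 had an unadjusted p under 0.05, against 14.9% of all genes. The reference names 5 Rpl29 pseudogenes. Which transcript each Rpl29 probe set reads was not tested, and the 2.56-fold difference is that of the second probe set.

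Placement was therefore checked for every member. The chosen probe set lay at the gene's own place for 38 members, elsewhere for 23, and could not be placed for 2 (Rpl6l and Rps4l). Of the 23, 17 had another probe set at the gene, and in 15 of these the differences of both probe sets were within 0.25 of each other. The exceptions were Rpl29 and Rpl9, whose difference was -0.26 in the chosen probe set and 0.069 at the gene, and neither Rpl9 value passed. Differences of 86.1% of all genes were smaller than 0.25 in size, so close values do not show that both probe sets read the same transcript. Mean levels at the gene ran from 3.26 (Rpl35) to 11.75 (Rps12), against 8.26 (Rpl9) to 12.05 (Rps18) in the chosen probe sets. Of the other members placed elsewhere, Rpl15, Rpl28, Rpl39, Rps6 and Rps13 had a single probe set, placed elsewhere. When members were read only at their own gene (55 members), 1 passed, Rpl29 in place of Rps13.

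**Figure D3:**
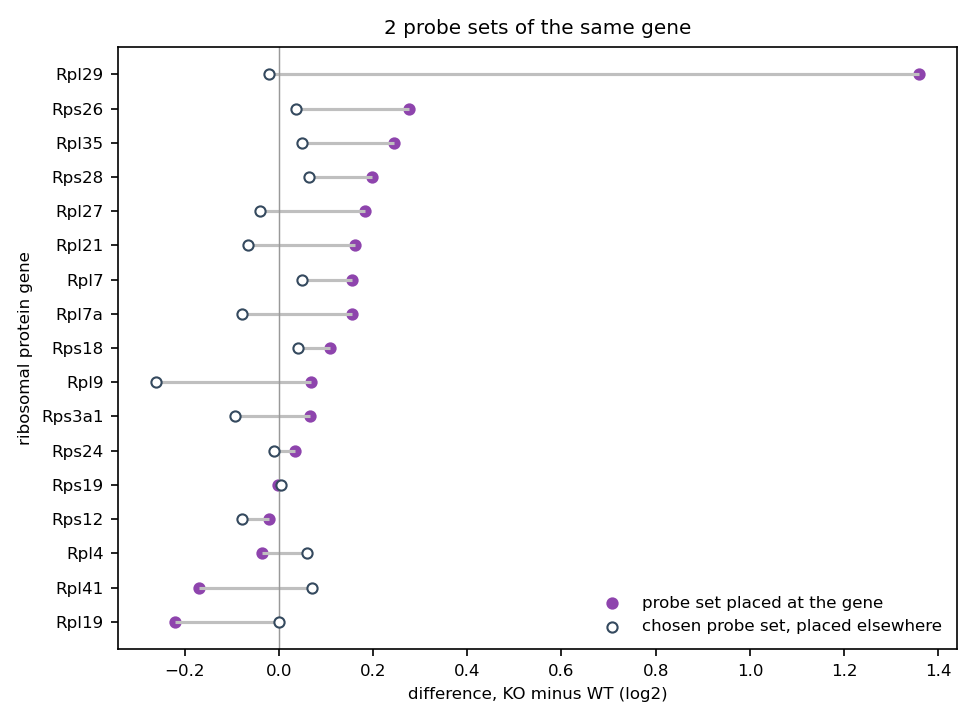
Difference (KO minus WT, log2) of the probe set placed at the gene (filled) and of the chosen, brighter probe set placed elsewhere (open) for the 17 members that have both. Rpl29 is far to the right at 1.36 in the probe set at its gene and -0.021 in the other.

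Among large-subunit genes 0 of 39 passed limma's test and 4 had an unadjusted p under 0.05, against 14.9% of all genes. The median difference was 0.0015. Rpl11, which together with Rpl5 binds Mdm2 and so stabilises p53 when ribosome assembly fails, read 4.90, 5.16, 4.98 and 4.89 in KO arrays, against 4.75, 3.97, 4.73, 4.35 and 4.00 in WT arrays. Its groups did not overlap, with a narrow gap, and the difference of 0.62 (95% interval from 0.24 to 1.00) did not pass over all genes (limma adjusted p = 0.102). Rpl5 read 6.64, 6.12, 6.62 and 6.05 in KO arrays, against 5.81, 5.71, 6.52, 5.68 and 5.45 in WT arrays (difference 0.52, limma adjusted p = 0.268). WT array 3 lay among the KO values of Rpl5. A further probe set that lists Rpl5 with a copy differed by 0.47 (limma adjusted p = 0.291).

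Rpl17 (difference 0.38, limma adjusted p = 0.241), Rpl3 (0.35, 0.388) and Rpl30 (0.28, 0.407) followed by size, with overlapping groups. The Rpl30 difference was 0.18 without KO array 4. Brighter probe sets that list Rpl30 among several symbols differed by -0.015, 0.027 and -0.13. Rpl3, which lines the peptidyl transferase region of the large subunit, had 2 further probe sets. One, between Usp9x and Ddx3x in ID order and away from the Rpl3 gene, read 8.17, 8.85, 8.62 and 8.10 in KO arrays, against 9.28, 8.94, 9.11, 9.05 and 8.92 in WT arrays. It lay lower in every KO array than in every WT array, opposite in sign to the chosen probe set, by 0.62 (limma adjusted p = 0.122). The other, at the gene, differed by -0.043.

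On the lower side were Rpl9 (-0.26, limma adjusted p = 0.382), Rpl6 (-0.25, 0.446), Rpl26 (-0.22, 0.488) and Rpl34 (-0.22, 0.788), all with overlapping groups. These sizes changed when single arrays were left out. Without KO array 4 the difference was -0.062 for Rpl26 and -0.16 for Rpl9. That of Rpl6 was -0.14 without KO array 2 and -0.16 without WT array 1. That of Rpl34 ranged from -0.48 without KO array 2 to -0.018 without KO array 3, and was -0.069 without KO array 1, -0.11 without WT array 1 and -0.34 without WT array 3. Rpl26 had the same value, 5.36, in 6 of the 9 arrays. In all 9 members (14.3%) had a value shared by 3 or more arrays, against 32.2% of all genes. Brighter probe sets list Rpl26 and Rpl34 among several symbols. They averaged 11.08 and 11.86 in KO and differed by -0.054 and -0.014. Rpl41, the shortest ribosomal protein, was higher in every KO array than in every WT array, but by 0.071 only (limma adjusted p = 0.610). This probe set is placed away from the gene. The other probe sets of Rpl41 alone had overlapping groups, and differed by -0.17 at the gene and by 0.048 to 0.12 elsewhere. Rpl22, which is required for the development of alpha-beta T cells in mice, differed by -0.13 (95% interval from -0.32 to 0.055).

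Among small-subunit genes Rps13 was the 1 of 24 that passed, and the median difference was -0.00019. Rps4x, the X-linked gene of protein S4, read 11.07, 11.16, 11.07 and 10.98 in KO arrays, against 11.27, 11.20, 11.29, 11.33 and 11.30 in WT arrays. Its groups did not overlap, the difference was -0.21 (95% interval from -0.34 to -0.079), and it did not pass (limma adjusted p = 0.111), although it did with a variance trend in the fit (adjusted p = 0.029). Rps3, a protein at the mRNA entry channel, lay lower in each KO array than in each WT array by 0.15 (limma adjusted p = 0.298). A dimmer probe set listing Rps3 with the small nucleolar RNA Snord15b differed by 0.34, with overlapping groups (limma adjusted p over all probe sets 0.602). Rps16 (-0.30, limma adjusted p = 0.223), whose values lay from 3.59 to 4.30, around the median of all probe sets, and Rps27 (-0.27, 0.695) had overlapping groups. The Rps27 difference was -0.52 without WT array 5 (limma adjusted p = 0.104), which read 5.35 where the other WT arrays read 6.38 to 6.88, and -0.14 without WT array 3. A probe set listing Rps16 with a copy differed by -0.022. A brighter probe set listing Rps27 with Rps27rt averaged 12.05 in KO and differed by 0.0064.

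The largest positive small-subunit differences were in Rps25 (0.23, limma adjusted p = 0.381) and Rps7 (0.17, 0.653). That of Rps7 was 0.11 without KO array 4 or without WT array 5, 0.26 without KO array 1 and 0.28 without WT array 1. Rps6, the S6 kinase substrate that is phosphorylated downstream of mTORC1, read between 11.73 and 11.76 in KO arrays and between 11.59 and 11.77 in WT arrays (difference 0.030, 95% interval from -0.098 to 0.16). Rps19, mutated in many human patients with Diamond-Blackfan anaemia, differed by 0.0049 (95% interval from -0.17 to 0.18).

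Of the paralogues with a restricted or inducible pattern, 7 were measured and 0 passed limma's test. An unadjusted p under 0.05 was found for 1, Rpl10l, against 14.9% of all genes. Rpl10l, expressed in the testis, read between 2.54 and 2.56 in KO arrays and between 2.33 and 2.45 in WT arrays (difference 0.16, limma adjusted p = 0.169). These values are low for the array, and the table holds no call of detection. Rpl22l1 differed by 0.13 and its partner Rpl22 by -0.13, with neither past the threshold. The difference of Rpl7l1 was 0.0084 without KO array 4. Rpl7l1 (0.16) and Rpl7 (0.048), Rpl39l (0.039) and Rpl39 (0.13), Rps27l, a p53 target (-0.0053), and Rps27 (-0.27), Rpl3l (0.049) and Rpl3 (0.35), and Rps4l (0.021) and Rps4x (-0.21) gave no pair with a member past the threshold.

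Another 56 probe sets list a ribosomal protein gene among several symbols and are not members, and 13 ribosomal protein genes, among them Rpl10, Rpl13a and Rps2, appear only there. Their differences lay between -0.33 and 0.62, with a median of -0.0061. The 1 that passed lists Flt3l, a cytokine of dendritic cell growth, and Rpl13a, and read 9.43, 9.53, 9.41 and 9.28 in KO arrays, against 8.79, 8.82, 8.90, 8.70 and 8.74 in WT arrays. The groups did not overlap, and it rose by 0.62 ± 0.070 (SE, limma adjusted p over all probe sets 0.0040). The other probe sets that list Rpl13a each list a small nucleolar RNA with it, and 0 of these 3 passed. Which of the listed genes a probe set reads was not tested.

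Ribosomal proteins whose symbols the rule does not match were read beside the members. Of 5 measured, 0 passed limma's test, 0 had an unadjusted p under 0.05, and the median difference was -0.11. They were the stalk proteins Rplp0 (-0.31, limma adjusted p = 0.494), Rplp1 (-0.12, 0.443) and Rplp2 (-0.11), the laminin receptor protein Rpsa (-0.11) and the ubiquitin-like fusion Fau (0.026).

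Translation factors and other genes whose mRNAs share the TOP start were measured in 18 of 21 cases, 0 passed limma's test and 6 had an unadjusted p under 0.05. The median was -0.079, and 15 of the 18 were lower in KO. Among the 11350 genes above the median of all probe sets, the median was -0.037, 6722 were lower in KO, and 2678 had an unadjusted p under 0.05. Eif4b, an initiation factor that assists the eIF4A helicase, had the smallest p (difference -0.37, limma adjusted p = 0.055), with groups that did not overlap. The elongation factor Eef2 followed (-0.21, 0.149), also without overlap.

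Assembly factors of the ribosome were measured in 37 of 39 cases, with a median of -0.035. Of these 0 passed and 5 had an unadjusted limma p under 0.05, against 14.9% of all genes. The smallest p-values were those of Ubtf, a polymerase I factor (-0.26, limma adjusted p = 0.156), and Nmd3, the export adaptor of the large subunit (-0.21, 0.227). Mitochondrial ribosomal proteins, 71 genes, had a median of -0.022, with 0 past the test. An unadjusted limma p under 0.05 was found for 7 of them, against the same 14.9%. Mrpl45 (-0.30) and Mrpl13 (-0.42) had the smallest p. Of 18 measured p53 pathway genes 1 fell, Ccng1, a cyclin G gene induced by p53 (difference -0.45, limma adjusted p = 0.033), and 0 rose. Over all genes 1.89% fell and 0.428% rose. Next by p was Trp53inp1 (-0.50, limma adjusted p = 0.083). Cdkn1a (0.020) and Mdm2 (0.086), main targets of p53 that were picked with their values known, did not pass.

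Levels of the members moved little from array to array. Each gene's log2 value was set against its own 9-array mean, and the median of these deviations over members was -0.0097, 0.055, -0.027 and -0.020 in KO arrays, against 0.048, -0.041, -0.0082, 0.019 and 0.029 in WT arrays. KO array 2 and WT array 1 were highest, and the groups overlapped. The middle 50% of members spanned 0.12 to 0.16 within a KO array and 0.10 to 0.15 within a WT array. The SD of a member between replicates had a median of 0.13 in KO and 0.095 in WT, beside 0.14 and 0.12 over all genes.

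**Figure D4:**
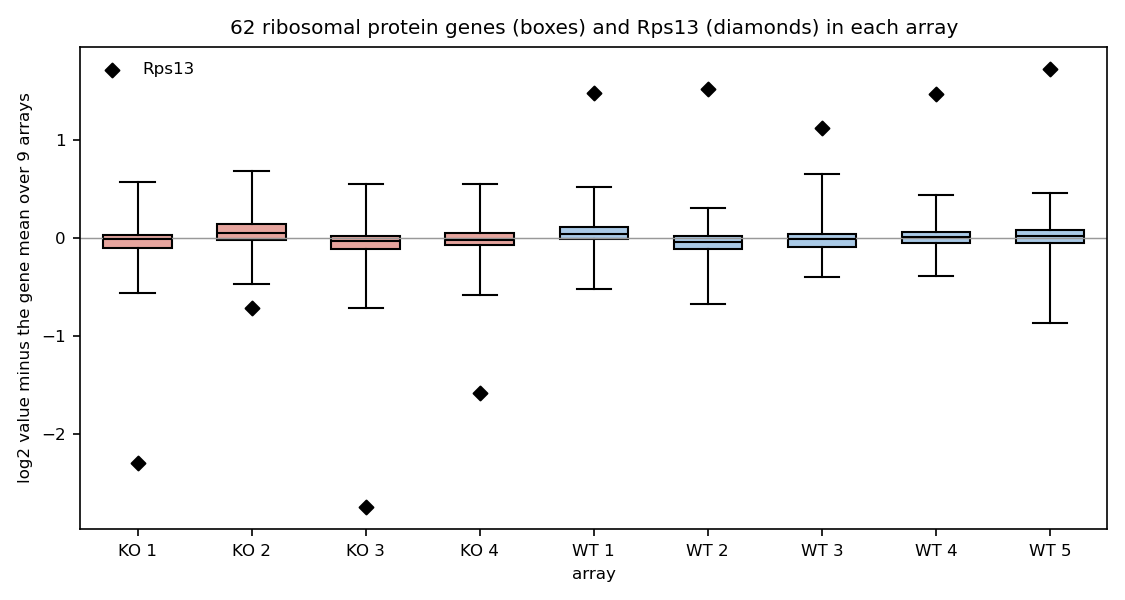
Deviation of the log2 value from each gene's 9-array mean for the 62 members other than Rps13 (boxes: quartiles, whiskers: full range) and for Rps13 (diamonds), KO arrays on the left. Array medians of the members lie near 0, while Rps13 lies below the whiskers of every KO array and above those of every WT array.

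As a check of the labels, Foxp3 averaged 10.72 ± 0.092 (SD, n = 4) in KO and 10.70 ± 0.049 (SD, n = 5) in WT, and Stk4 averaged 7.64 ± 0.15 and 7.91 ± 0.10 (limma adjusted p = 0.146), where the exons read by the Stk4 probe set were not checked, and Stk3 was not analysed here. All 10 Treg cell markers were above the median of all probe sets. Their mean log2 level was 9.25 to 9.39 in KO arrays and 9.50 to 9.55 in WT arrays. Of the 10, 2 fell (Il2rb and Ikzf2), where 1.89% of all genes fell. In KO 7 were lower and 3 higher (median difference -0.18). Groups did not overlap for 3, against 6.16% of all genes. The mean level of 11 B and plasma cell markers was 4.77 to 5.50 in KO and 4.40 to 5.15 in WT arrays, that of 12 myeloid markers 4.41 to 5.62 and 4.30 to 4.95, that of 9 CD8 T and NK cell markers 4.03 to 4.38 and 3.99 to 4.24, and that of 8 stromal markers 4.15 to 4.26 and 4.13 to 4.29. Of the B and plasma cell markers 10 of 11 were higher in KO (median difference 0.25), and of the myeloid markers 11 of 12 (median difference 0.17), with KO array 4 the highest in both lists. In these lists 0 members passed limma's test, and 2, 3, 2 and 1 had an unadjusted p under 0.05, against 14.9% of all genes. Only 1 of 8 erythroid markers was measured, Slc4a1 (difference -0.16, limma adjusted p = 0.566). Inducible heat shock genes averaged 5.11 to 9.06 in KO and 4.73 to 9.05 in WT arrays, and with the level of Hspa1a and Hspa1b as a covariate the Rps13 difference was -3.31. The part of these other cell types in the members' values was not tested.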

How the data were processed

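The deposited table holds log2 values, which the submitters' processing notes credit to RMA and Affymetrix Expression Console 1.1. It has 41345 probe sets, 9 arrays and values from 1.26 to 12.9, and precision is limited by the number of arrays. The sources used here do not give the build of the array. Probe sets were named from the platform annotation (23521 with 1 symbol, 1814 with several, 16010 with none listed), and 1 probe set per gene (highest mean) gave 22180 genes. Groups were compared with limma 3.58.1 (lmFit, eBayes) in R 4.3.3 with Benjamini-Hochberg adjustment at 0.05, over all genes or, where stated, over all probe sets, and single values with exact two-sided permutation over all 126 splits. The test was checked on simulated data. Placement used probe set IDs and gene order in the reference table. Members and lists were chosen with earlier results of these data known. Named members were Rps13, any past the threshold, the 8 largest differences either way, members without overlap, paralogues with their partners, Rpl5, Rpl11, Rps6, Rps19, Rpl22 and members whose probe sets disagreed by over 0.5. In other lists these were genes past the threshold and the 2 with the smallest p. Alternatives are given at the end. Replicate numbers gave no sign of pairing, which so few samples cannot exclude, and samples were compared unpaired. Python 3.11.15, pandas 2.3.3, numpy 2.4.6 and matplotlib 3.10.9 served for tables and plots.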

Additional observations from a re-analysis of the deposited data

Results flagged for a closer look

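Of 72 groups of arrays examined for a single distant array, 6 held one, where chance gives about 1 in 20. KO array 3 was low for Rps25 (8.94, the others from 9.27 to 9.32), KO array 4 was low for Rpl26 (4.75, the others at 5.36) and high for Rpl7l1 (6.17, the others from 5.49 to 5.60). WT array 2 was low for Rpl7l1 (5.38, the others from 5.59 to 5.60). KO array 2 was high for Rpl41 (11.85, the others at 11.78) and KO array 1 for Rps6 (11.76, the others at 11.73). Rpl26 and Rpl7l1 have values shared exactly by 6 and 4 arrays, which narrows the range of the others. Outside the 1 probe set per gene, 2 probe sets passed the test: the Rpl29 probe set at its gene (difference 1.36) and the one that lists Flt3l and Rpl13a (0.62).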

How the results depend on the processing

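Rps13 stayed lower and past the threshold under the planned settings, with differences between -3.67 and -2.99 without 1 array, but read from the several-symbol probe set between Plekha7 and Pik3c2a (chosen after seeing the data) it reversed to 0.045, with 0 members past the threshold. By construction this setting reads other probes. The count of members was 2 with the mean of a gene's probe sets (Rpl29 added, 0.67) and 2 with a variance trend (Rps4x added, -0.21), and 1 without any 1 array. The members' median was -0.036 without KO arrays 2 and 4, and -0.051 to 0.0074 without 1 array. The count of all genes, 515, lay between 271 and 594 without 1 array, and fell below it by over 1.5 times without KO array 1 (280) or WT array 1 (327), 2 (282), 3 (322), 4 (271) or 5 (314). It was 178 with a block for the replicate number, under which Rps13 differed by -3.23 (adjusted p = 0.0098). Same-numbered samples correlated between -0.11 and 0.042 in their deviations and did not match best by number. These values give no sign of pairing, but so few samples cannot exclude it. The block drops WT array 5 from the difference. Among differences that did not pass, signs turned for Rpl3 with the mean of probe sets (-0.10), for Rps19 with median centring (-0.0018) and array weights (-0.015), for Rps27l with quantile normalisation (0.064), and without KO arrays 2 and 4 for Rpl7l1 (-0.013), Rps4l (-0.0081), Rpl7 (-0.0055) and Rps19 (-0.091). Read at their gene, Rpl9 (0.069), Rpl41 (-0.17), Rps19 (-0.0015) and Rpl29 (1.36) turned, of which only Rpl29 passed (adjusted p = 0.00025). Without 1 array, ranges included both signs for Rps27l (-0.095 to 0.044), Rps19 (-0.051 to 0.0665), Rpl3l (-0.011 to 0.094), Rpl39l (-0.030 to 0.115), Rpl29 (-0.051 to 0.0057), Rps4l (-0.043 to 0.065) and Rps6 (-0.00030 to 0.046). The cause was not tested. The other 603 values of named members kept their direction and side of the threshold. Signal over background was not in the table, so dim probe sets limit Rpl10l, Rpl3l, Rps16 and Rpl30, which lie below the median of all probe sets. Rpl22l1 (mean 4.38), Rpl11 (4.63) and Rpl39 (4.64) lie only a little above that median (4.04), and the same limit holds for them.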
